A study of Homo sapiens with 24 samples.

Results

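Circadian clocks drive rhythmic genes through a small set of output and feedback transcription factors, and 7 of these genes are described here in A549 cells, a human lung adenocarcinoma line, exposed to the glucocorticoid (GC) dexamethasone (dex). The genes were taken by name from the deposited count table: *DBP*, *TEF*, *HLF*, *NFIL3*, *BHLHE40*, *BHLHE41* and *CIART*, 7 of the 33126 genes to which the table's transcripts could be joined. Their 21 transcripts were summed per gene. Cells growing in serum received 100 nM dex in ethanol or 0.02% ethanol alone (EtOH) for 1, 3, 5, 7, 9 or 11 h, with 2 biological replicates in each of the 12 groups. Each time point therefore had its own EtOH control, and the 24 libraries held from 6708864 to 13748598 counts with dex and from 7813353 to 13619043 with EtOH. A549 is a cancer-derived line grown with no synchronization of its clocks named in the labels, so a level is a mean over cells whose clocks may differ in phase, and fewer cells with a transcript cannot be told apart from less transcript per cell.

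*DBP*, *TEF* and *HLF* encode the PAR bZIP activators, which bind D-box sequences in genes of metabolism and detoxification. *NFIL3* encodes a bZIP repressor of the same D-box. *BHLHE40* and *BHLHE41* (also called DEC1 and DEC2) encode basic helix-loop-helix repressors that bind E-boxes, the CACGTG sequences through which CLOCK and BMAL1 drive the clock loop, and *CIART* (also called CHRONO) encodes a repressor that acts on CLOCK and BMAL1. GCs are known as a signal that sets clocks in peripheral tissues, acting through the glucocorticoid receptor (GR), with *PER1* as a direct target.

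The E-box is the element most of these genes share at their starts, so the stretches that hold it are shown first. RefSeq gives 10 promoters for the 7 genes, each of 300 bases (250 before the start site and 50 from it on; GRCh38.p14). An E-box lay in 5 of these 10 promoters, belonging to 4 of the 7 genes, against 7.26% of all 35116 RefSeq promoters. *CIART* stood out with 3 E-boxes at 129, 71 and 57 bases before its start, a number that 33 promoters (0.094%) reached. The 98 bases of chr1:150282415-150282512 (plus strand) that hold them follow, then the single E-boxes of *BHLHE40* (chr3:4979187-4979208, plus strand, 245 bases before the start), *BHLHE41* (chr12:26125069-26125096, minus strand, 48 bases before), and both promoters of *TEF* (chr22:41367249-41367276 and chr22:41381738-41381765, plus strand, 195 and 193 bases before), with the E-box in capitals.
CIART: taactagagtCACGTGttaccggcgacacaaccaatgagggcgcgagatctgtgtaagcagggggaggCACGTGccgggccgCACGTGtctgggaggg
BHLHE40: tccaaCACGTGagactcatgtg
BHLHE41: ggtacgttccgCACGTGagctgggtgct
TEF promoter 1: cgcgacagctcCACGTGctgcagctggc
TEF promoter 2: acctggccccgCACGTGtctatcttatc
The *BHLHE40* and *BHLHE41* boxes lie in an exon of their own gene in GENCODE 29, whose starts are upstream of RefSeq's, and the *CIART* and *TEF* boxes lie in no exon.

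Other motifs were sparse. No promoter of the 7 genes held a D-box (TTACGTAA, TTATGTAA or TTACATAA on either strand, found in 1.01% of all promoters). None held the full GR site, AGAACA and TGTTCT separated by 3 bases, a spelling so strict that 1 promoter of the 35116 had it. The AGAACA hexamer on its own, found in 14.8% of all promoters on either strand, occurred in *BHLHE40* at 153 bases before the start (chr3:4979273-4979300, plus strand).
BHLHE40 hexamer: agtcacagggtAGAACAcgtagctccaa
The ROR and REV-ERB element TAGGTCA, present in 1.85% of promoters, occurred on the opposite strand in the downstream *NFIL3* promoter at 9 bases before the start (chr9:91423824-91423852, minus strand).
NFIL3 promoter 2: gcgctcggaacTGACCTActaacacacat
These are letter matches, and binding was not measured in these libraries.

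**Figure D1:**
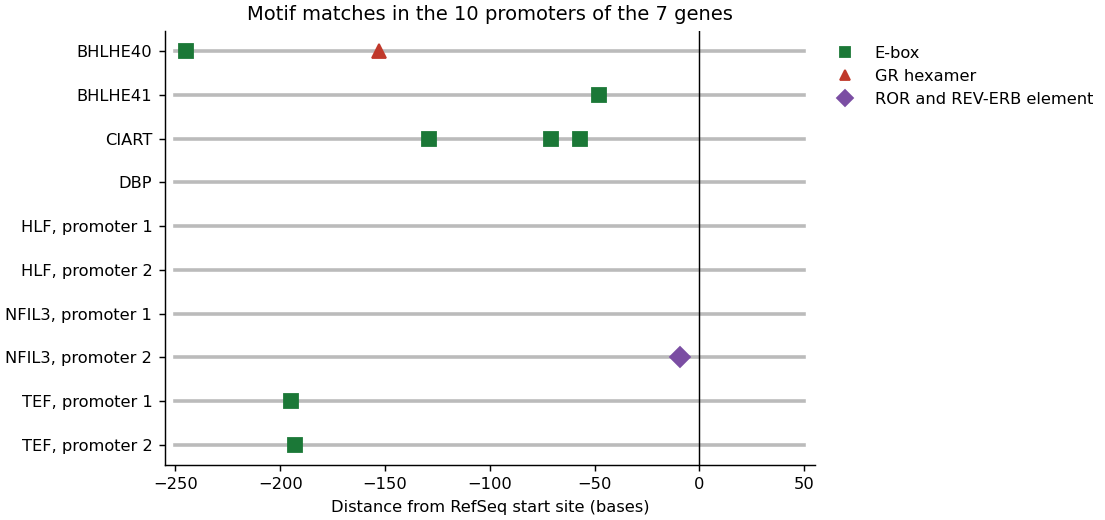
Position of motif matches (symbols) in the 10 RefSeq promoters of the 7 genes (grey lines), in bases from the start site (vertical line); GR hexamer is AGAACA. *CIART* carries 3 E-boxes within 78 bases, *BHLHE40*, *BHLHE41* and each *TEF* promoter carry 1, and *DBP* and *HLF* show no match.

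The 7 genes covered a wide range of levels. Levels between genes were compared as CPM, the counts scaled to library size (TMM), divided by transcript length in kilobases (CPM per kb). With EtOH, *BHLHE40* was highest with a median of 37.0 CPM per kb over 12 libraries (range 32.9 to 42.5), followed by *NFIL3* with 12.4 (10.9 to 14.6). The ranges of these leading genes did not overlap each other or those of the rest. *TEF* (median 0.806), *DBP* (0.719) and *HLF* (0.502) formed a low middle group with overlapping ranges, and *BHLHE41* (0.220) and *CIART* (0.0306) were lowest, each overlapping its neighbour in this order. With dex the order was *BHLHE40* (30.3), *NFIL3* (14.04), *TEF* (1.19), *DBP* (0.825), *HLF* (0.703), *CIART* (0.423) and *BHLHE41* (0.102), and only *NFIL3* and *TEF* were neighbours whose ranges did not overlap. In counts, *BHLHE40* had 279 to 2048 a library, while *BHLHE41* had 1 to 16 and *CIART* 0 to 11. *CIART* did not pass the filter on low counts; the other 6 genes did and were tested among 19897 genes.

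**Figure D2:**
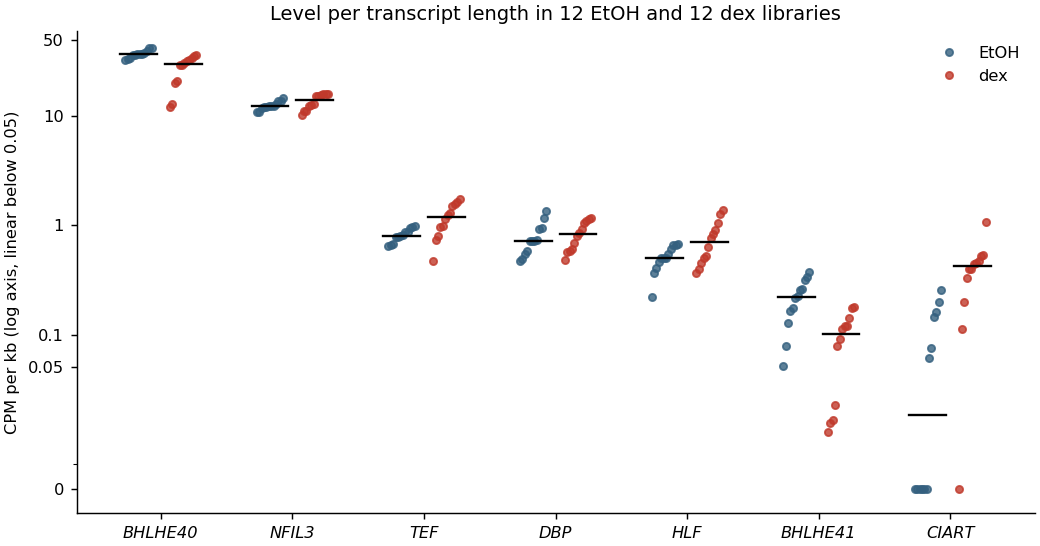
CPM per kb of each gene in the 12 EtOH and 12 dex libraries (points; bars are medians; log axis that is linear below 0.05). *BHLHE40* and *NFIL3* lie above 10 and all other genes below 2, and *CIART* is at 0 in 6 EtOH libraries and 1 dex library.

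*BHLHE40* was the first of these genes to change and changed most clearly. At 1 h its 2 dex libraries held 44.6 and 42.3 CPM against 130 and 147 in the EtOH libraries. At 3 h they held 73.3 and 69.7 CPM against 127 and 129. Both times the groups were far apart, and mean dex levels were 31.3% and then 56.0% of EtOH. The fitted log2 fold change was −1.67 (SE 0.12, 95% interval −1.92 to −1.41, edgeR quasi-likelihood adjusted p = 3.77e-08) at 1 h and −0.85 (SE 0.10, −1.06 to −0.63, adjusted p = 2.51e-07) at 3 h. It was the only one of the 6 tested genes called at 1 h (adjusted p of at most 0.1, Benjamini-Hochberg over all genes), where 0.342% of all genes were called lower and 0.523% higher.

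From 5 h on *BHLHE40* with dex came back towards its control without passing above it. The dex libraries held 114 and 119 CPM at 5 h against 126 and 132. At 7 h the groups overlapped, with 123 and 112 CPM against 120 and 129. At 9 h they held 126 and 108 CPM against 146 and 138, and at 11 h 103 and 103 against 116 and 114. None of these 4 later times passed the test. The 9 h value (log2 fold change −0.28, interval −0.52 to −0.03, adjusted p = 0.143) passed in the fit over all 24 libraries, with an adjusted p of 0.0377. The dex effect differed between times (quasi-likelihood test of the treatment by time terms, adjusted p = 5.35e-09; 13.8% of all genes passed). Relative to the effect at 1 h, the effect was higher by 0.84 at 3 h and by 1.38 to 1.59 from 5 to 11 h on the log2 scale.

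*BHLHE41*, the related repressor, was present at only a few counts. Its 12 EtOH libraries held 2 to 16 counts and 107 in all, and its 12 dex libraries held 1 to 7 and 42 in all. The filter on low counts asked for about 10 counts at median depth, which no dex library reached. *BHLHE41* thus passed it only through EtOH libraries, the arm where it was higher, and its calls as lower with dex are conditional on that. At 1, 3 and 11 h both dex libraries were below both EtOH libraries, and at 5, 7 and 9 h they overlapped. With 2 libraries against 2, full separation in either direction has a probability of 0.333 if labels are exchangeable. Such separations at a single time are therefore description only, for this gene and the others. At 3 h the dex libraries held 1 and 6 counts against 12 and 12, a log2 fold change of −1.69 (SE 0.64, interval −2.99 to −0.39, adjusted p = 0.0982). This call was near the threshold and was lost without dex replicate 1 (adjusted p = 0.556), EtOH replicate 1 (0.323) or EtOH replicate 2 (0.111). At 3 h *BHLHE40* and *BHLHE41* were the 2 called genes of the 6, both lower; 5.29% of all genes were lower at that time and 7.66% higher. At 11 h the fold change was −1.82 with an interval of −3.47 to −0.17 and did not pass (adjusted p = 0.240). Of its 3837 exon bases, 162 are shared with *SSPN* on the opposite strand, and whether strand was used in counting is not given in the sources used here.

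**Figure D3:**
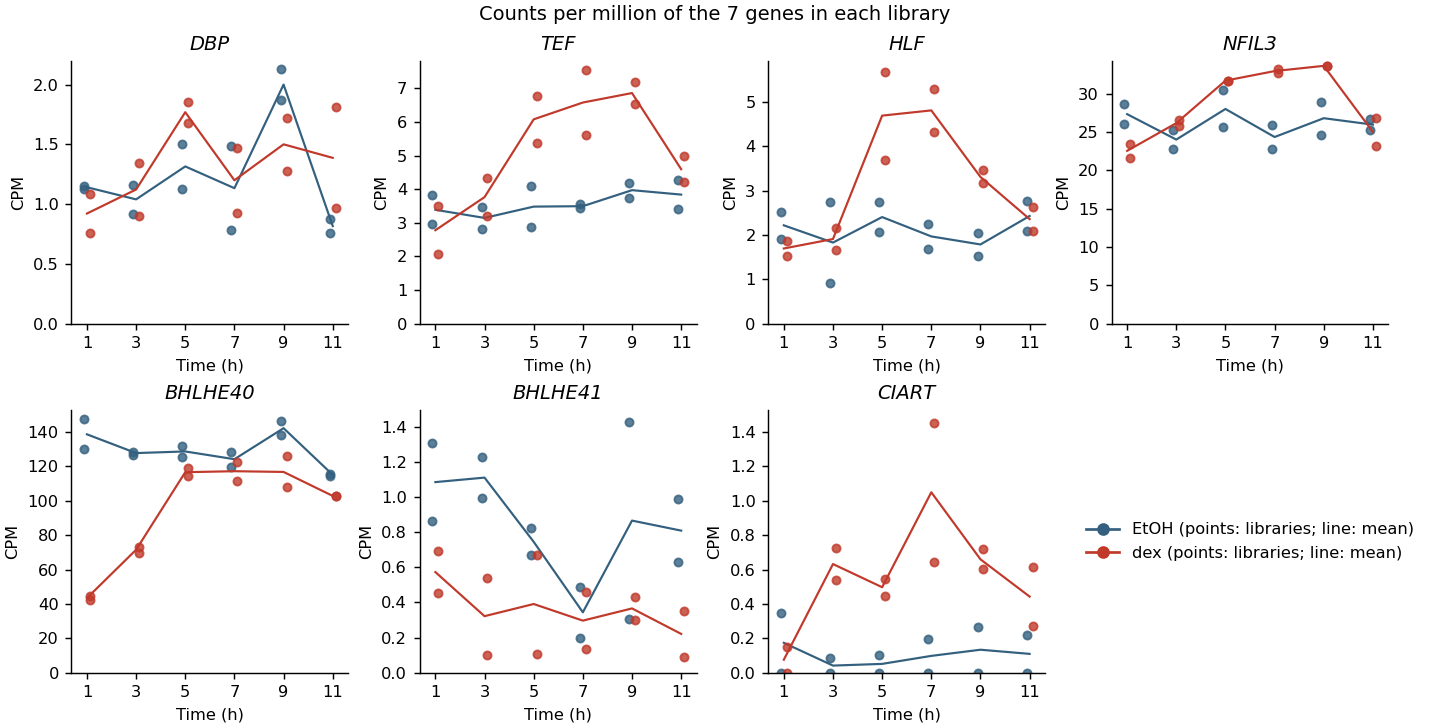
CPM of the 7 genes in each library by time (points, 2 a group; lines join group means; each panel starts at 0). *BHLHE40* with dex is lowest at 1 h, *TEF* and *HLF* with dex lie above EtOH at 5, 7 and 9 h, and *CIART* with dex lies above EtOH from 3 h on.

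*TEF* and *HLF*, which encode PAR bZIP activators, were higher with dex in the middle of the time course. *TEF* with dex held 6.77 and 5.38 CPM at 5 h, 5.62 and 7.53 at 7 h and 7.18 and 6.53 at 9 h. The matching EtOH libraries held 2.88 and 4.08, 3.56 and 3.43, and 4.19 and 3.75 CPM. At each of these times both dex libraries lay above both EtOH libraries, while at 1, 3 and 11 h the groups overlapped. The log2 fold changes were 0.78 (SE 0.26, adjusted p = 0.0295) at 5 h, 0.88 (SE 0.24, adjusted p = 0.00686) at 7 h and 0.78 (SE 0.24, adjusted p = 0.0394) at 9 h.

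*HLF* followed the same outline at lower counts. With dex it held 5.68 and 3.70 CPM at 5 h, 4.33 and 5.29 at 7 h and 3.16 and 3.45 at 9 h. With EtOH it held 2.06 and 2.75, 1.68 and 2.25, and 2.05 and 1.52 CPM. The groups were again apart at these 3 times. Its log2 fold changes were 0.94 (SE 0.30, adjusted p = 0.0202), 1.27 (SE 0.29, adjusted p = 0.00135) and 0.90 (SE 0.32, adjusted p = 0.0786). At 11 h *HLF* was at 2.63 and 2.08 CPM with dex and 2.77 and 2.08 with EtOH, with a fold change of −0.04 on the log2 scale and an interval of −0.80 to 0.73.

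With 9 to 87 counts a library, the calls for *TEF* and *HLF* at single times depended on the tool and on single libraries. DESeq2 called only *HLF* at 7 h (adjusted p = 0.0832) and gave *TEF* adjusted p values of 0.315, 0.173 and 0.271 at 5, 7 and 9 h. At 5 h, both calls were lost without dex replicate 1 (adjusted p = 0.218 for *TEF* and 0.314 for *HLF*) or without EtOH replicate 1 (0.235 and 0.149). At 7 h *TEF* was lost without dex replicate 2 (0.156). At 9 h both were lost without either dex library, with adjusted p values of 0.254 and 0.192 for *TEF* and 0.223 and 0.394 for *HLF*, and *HLF* also without EtOH replicate 2 (0.224). The fold changes of both genes kept their sign at these 3 times in every alternative tried.

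*NFIL3*, the D-box repressor, was well counted and moved little. With dex it held 31.7 and 31.7 CPM at 5 h, 33.2 and 32.6 at 7 h and 33.6 and 33.6 at 9 h. With EtOH it held 25.6 and 30.4, 22.7 and 25.9, and 28.97 and 24.6 CPM. The dex libraries lay above the EtOH libraries from 3 to 9 h, below them at 1 h (21.6 and 23.5 against 26.0 and 28.7 CPM) and overlapped them at 11 h. Only 7 h passed the test, with a log2 fold change of 0.44 (SE 0.12, interval 0.20 to 0.67, adjusted p = 0.00482), and it did not pass with DESeq2 (adjusted p = 0.119) or without dex replicate 1 (0.126). At 9 h the fold change was 0.34 (adjusted p = 0.139; 0.0812 in the fit over all 24 libraries). The dex effect on *NFIL3* differed between times (adjusted p = 0.0622; 0.0880 with DESeq2), running from −0.28 at 1 h to 0.44 at 7 h, a call lost without any 1 of 7 libraries of 1, 7 or 9 h.

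By time, these results placed 2 of the 6 tested genes as higher at 5 h (*TEF* and *HLF*; 11.2% of all genes were higher and 11.9% lower), 3 at 7 h (*TEF*, *HLF* and *NFIL3*; 13.4% higher and 12.4% lower) and 2 at 9 h (*TEF* and *HLF*; 9.79% higher and 8.42% lower), with none lower at these times (*BHLHE40* at 9 h had an unadjusted p of 0.0309, and DESeq2 called none lower). At 11 h none of the 6 was called by edgeR, where 5.31% of all genes were higher and 3.27% lower. *BHLHE41* was the 1 gene with an unadjusted edgeR p below 0.05 (0.0327). DESeq2 called none at 11 h and gave no adjusted p for *BHLHE41*. The median log2 fold change over the 6 genes was −0.36 at 1 h, 0.04 at 3 h, 0.29 at 5 h, 0.28 at 7 h, 0.03 at 9 h and −0.05 at 11 h. Over all genes the medians were within 0.01 of 0, where TMM scaling tends to hold them, so they are no yardstick for 6 unlike genes.

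**Figure D4:**
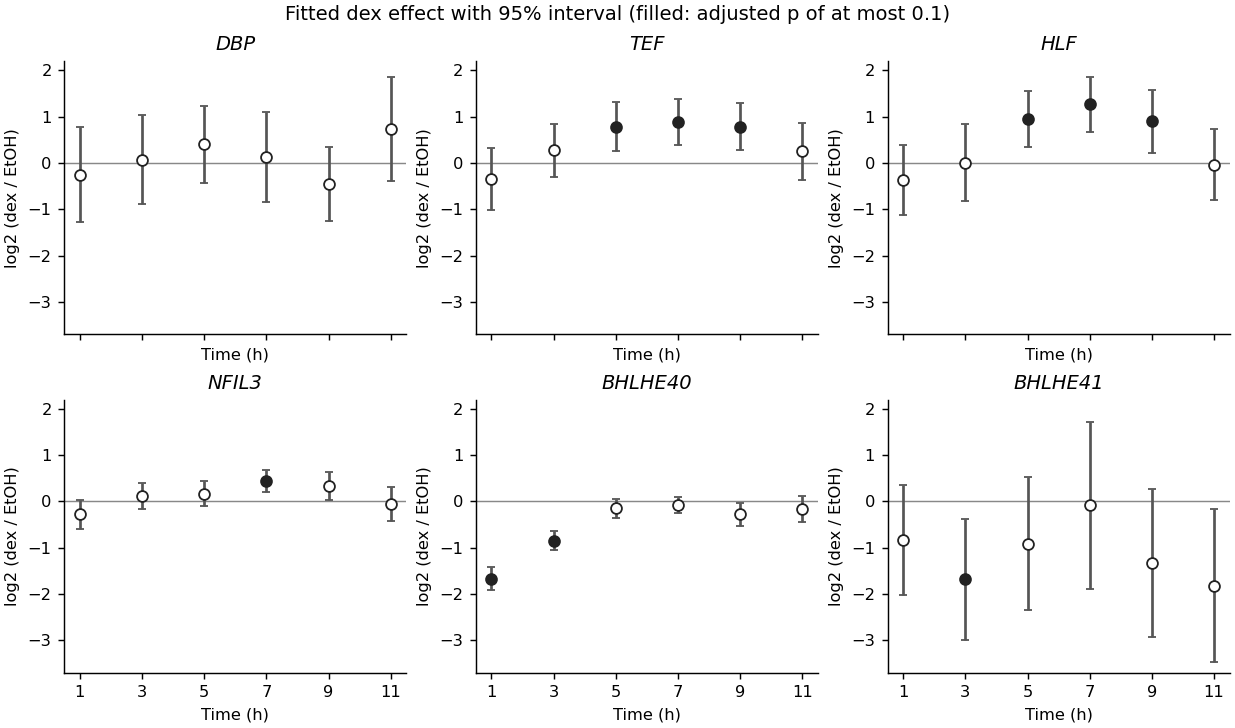
Fitted log2 fold change of dex against EtOH by time for the 6 tested genes, with 95% intervals (filled points have an adjusted p of at most 0.1). *BHLHE40* starts at −1.67 and nears 0 by 5 h, and *TEF* and *HLF* are filled at 5, 7 and 9 h.

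*DBP*, a strongly rhythmic PAR bZIP gene in many tissues, passed no edgeR test at a single time, with no unadjusted p below 0.05. It passed none with DESeq2, which gave it no adjusted p at 1 h. Its libraries held 5 to 20 counts with dex and 6 to 21 with EtOH. Both dex libraries were higher than both EtOH libraries at 5 h (1.86 and 1.68 against 1.13 and 1.5 CPM) and at 11 h (0.966 and 1.81 against 0.756 and 0.877 CPM). They were lower at 1 h (1.08 and 0.758 against 1.13 and 1.15) and at 9 h (1.72 and 1.28 against 1.87 and 2.13), and overlapped at 3 and 7 h. Its fold change averaged over the 6 times was 0.11 on the log2 scale with an interval of −0.25 to 0.46. An average rise above 0.46 or an average fall below −0.25 lies outside this interval, while smaller average changes lie within it. Of its 2875 exon bases, 661 are shared with *SPHK2* on the opposite strand.

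*CIART*, the repressor of CLOCK and BMAL1, was at 0 in 6 of 12 EtOH libraries and was counted in 11 of 12 dex libraries. With dex, its counts in the 2 replicates were 0 and 1 at 1 h, 7 and 6 at 3 h, 5 and 4 at 5 h, 7 and 11 at 7 h, 5 and 8 at 9 h, and 7 and 3 at 11 h. With EtOH they were 4 and 0, 0 and 1, 1 and 0, 0 and 2, 3 and 0, and 0 and 2. From 3 h on, the 10 dex libraries ranged from 0.271 to 1.45 CPM and the 10 EtOH libraries from 0 to 0.267 CPM. These ranges did not overlap, though their nearest libraries both held 3 counts. Over all times there were 64 counts with dex and 13 with EtOH, and the mean CPM with dex was 5.52 times that with EtOH.

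Because *CIART* was below the filter, it was tested on its own after its values had been seen. An exact permutation test, two-sided, exchanged the dex and EtOH labels within each time point in all 46656 ways. The mean difference of 0.458 CPM had an exact permutation p of 0.000472, where the smallest p this design can give is 4.29e-05. With no filter on low counts, 34335 genes entered the fit and the *CIART* effect averaged over the 6 times was 2.07 on the log2 scale (SE 0.66, adjusted p = 0.0121), where 9.37% of genes were called higher. In the same unfiltered setting *CIART* passed at 3 h (adjusted p = 0.0427) and 7 h (0.00494) and not at the other times. Fold changes of a gene whose EtOH libraries are mostly at 0 to 2 counts depend on the prior count of the fit.

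Averaging over times gave each gene 12 libraries a side. This comparison was added after the fits at single times had been seen, and rests on the same libraries. *BHLHE40* fell by 0.53 on the log2 scale (SE 0.04, adjusted p = 4.99e-12) and *BHLHE41* fell by 1.11 (SE 0.32, adjusted p = 0.00909). *BHLHE41* had passed the filter only through EtOH libraries. With no filter on low counts its edgeR average was −1.12 (SE 0.29, adjusted p = 0.00132). *TEF* rose by 0.44 (SE 0.11, adjusted p = 0.00240) and *HLF* by 0.45 (SE 0.15, adjusted p = 0.0205). *NFIL3* rose by 0.12 (SE 0.05, adjusted p = 0.0859), a call that DESeq2 did not make (adjusted p = 0.259) and that was lost without any 1 of 16 libraries. Thus 3 of 6 genes were higher and 2 lower, beside 16.4% and 17.6% of all genes. The calls for *BHLHE40*, *BHLHE41*, *TEF* and *HLF* each held when any 1 of the 24 libraries was left out, with the genes passing the filter kept the same. For this comparison DESeq2 was fitted with a single dex effect shared by all times, whereas the edgeR fit held treatment by time terms. DESeq2 gave *BHLHE40* an adjusted p of 0.00132 (SE 0.14), *TEF* 0.00471, *HLF* 0.0490, *BHLHE41* 0.00732 and *CIART* 0.000378.

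Over time with EtOH alone, none of the 6 genes was called by edgeR (3.33% of all genes were called). DESeq2 called neither *BHLHE40* nor *NFIL3* and gave no adjusted p for *BHLHE41*, *DBP*, *HLF* and *TEF*. *BHLHE40* was the 1 gene with an unadjusted p below 0.05 (0.0453, adjusted p = 0.306), and its EtOH means ran from 115 CPM at 11 h to 142 at 9 h. Over time with dex, 4 of the 6 genes were called, beside 21.2% of all genes: *BHLHE40* (adjusted p = 1.81e-07), *HLF* (0.00433), *NFIL3* (0.0115) and *TEF* (0.0121). Relative to 1 h with dex, *BHLHE40* was higher by 1.4 at 5 h, *HLF* by 1.45 at 7 h, *TEF* by 1.34 at 9 h and *NFIL3* by 0.57 at 9 h on the log2 scale. The treatment by time terms for *HLF* (adjusted p = 0.113) and *TEF* (0.157) did not pass, so a difference of their dex effect between times was not shown.

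*TEF* and *HLF* are each read as several transcripts. *TEF* was split between ENST00000406644.3, which holds 50.4% of its counts and starts at chr22:41367333 in GENCODE 29, and ENST00000266304.4, which holds 48.7% and starts at chr22:41381929 beside the downstream promoter. Summed over the 2 libraries, the upstream transcript had 63 counts with dex and 41 with EtOH at 5 h, and 60 and 37 at 7 h. The downstream transcript had 47 and 34 counts at 5 h, 58 and 34 at 7 h, and 73 and 43 at 9 h. Fitted among all transcripts, both passed at 7 h with log2 fold changes of 0.83 (adjusted p = 0.0831) and 0.90 (0.0624), and the upstream transcript also at 5 h with 0.89 (0.0597). Their difference was not tested.

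For *HLF*, ENST00000226067.5 held 43.0% of the counts, ENST00000575345.1 29.2% and ENST00000573945.1 19.3%. ENST00000226067.5 went from 18 counts at 3 h to 34 at 5 h with dex, beside 17 and 20 with EtOH. ENST00000575345.1 went from 7 to 27 counts with dex, beside 15 and 16 with EtOH, and at 7 h it had 29 counts against 9. It was the *HLF* transcript that passed at 7 h, with a log2 fold change of 1.79 (SE 0.52, adjusted p = 0.0163). Transcripts of a gene share most of their sequence, and how reads matching several were placed is not given in the sources used here, so the split within a gene is uncertain. *BHLHE40*, *BHLHE41* and *NFIL3* each had 1 transcript in the table.

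**Figure D5:**
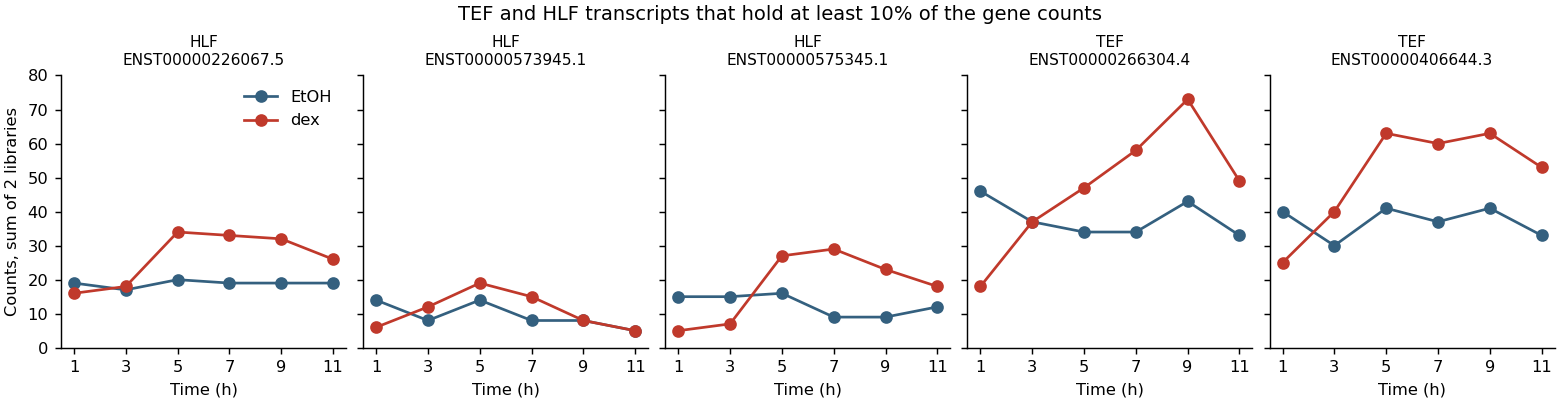
Counts summed over the 2 libraries of a group, by time, for the *HLF* and *TEF* transcripts with at least 10% of the gene's counts. Both *TEF* transcripts and ENST00000226067.5 and ENST00000575345.1 of *HLF* have more counts with dex than with EtOH at 5, 7 and 9 h.

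The 7 genes were set beside lists of the genes around them. Of 14 core loop genes, 11 passed the filter; 3 were higher at 1 h (0.523% of all genes), 4 higher at 3 h (7.66%), and 4 higher with 3 lower at 5 h (11.2% and 11.9%). The counts were 4 higher and 4 lower at 7 h (13.4% and 12.4%), 4 and 3 at 9 h (9.79% and 8.42%), and 4 and 1 at 11 h (5.31% and 3.27%). *PER1*, a period repressor, was at 43.8 ± 2.1 CPM with dex and 6.93 ± 0.58 with EtOH at 1 h (SD, n = 2), and stayed higher at every time. *PER2*, its relative, was higher at every time, by 0.80 to 1.46 on the log2 scale. *NR1D2*, which encodes the REV-ERB beta repressor, was higher at 3 h (207 ± 1 against 73.5 ± 0.6 CPM) and lower at 5 h (26.5 ± 3.8 against 75.7 ± 3.7 CPM). It was also called higher at 1 h (log2 fold change 0.46, edgeR adjusted p = 0.0932) and 11 h (0.74, 0.00574), and lower at 7 h (−0.60, 1.03e-05).

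Of 7 measured clock kinase, ubiquitin ligase and deubiquitinase genes, none was called at 1 h, 2 were higher and 1 lower at 3 h (7.66% and 5.29% of all genes), 3 higher and 1 lower at 5 h (11.2% and 11.9%), and 2 higher with none lower at 7 h (13.4% higher), 9 h (9.79%) and 11 h (5.31%). *USP2*, a deubiquitinase gene, went from 1.67 ± 0.29 CPM with EtOH to 6.39 ± 0.31 with dex at 7 h (log2 fold change 1.92, adjusted p = 1.73e-06). *CSNK1D*, a casein kinase gene, was higher by 0.62 at 3 h (adjusted p = 4.80e-05), and *CSNK1E* was lower by 0.35 at 5 h, from 42.7 to 33.7 CPM (adjusted p = 0.0451).

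Of 7 genes known as targets of PAR bZIP factors in liver or brain, 4 passed the filter and *CYP3A4*, *CYP2A6* and *ABCB1* had at most 4 counts in any library. None of the 4 was called at 1 h, 2 were higher at 3 h (7.66% of all genes), 3 at 5 h (11.2%), 2 at 7 h (13.4%), none at 9 h (9.79%) and 1 at 11 h (5.31%), and none was lower at any time. *POR*, which encodes the cytochrome P450 reductase, was at 49.5 ± 8.6 CPM with dex against 32.1 ± 4.4 at 3 h, and at 54.5 ± 4.1 against 25.2 ± 0.7 at 7 h. It was the gene called at 11 h (log2 fold change 1.12, adjusted p = 0.0156), where its dex libraries lay far apart (74.0 ± 36.7 against 33.9 ± 2.0 CPM). Whether *TEF* or *HLF* took part in the *POR* changes was not tested. *PDXK*, pyridoxal kinase, was higher at 3 h by 0.44 (adjusted p = 0.00135), and *NR1I3*, a xenobiotic receptor, at 5 h by 1.66 (adjusted p = 0.000384). At 5 h *NR1I3* was at 3.83 ± 1.24 CPM with dex against 1.19 ± 0.08, its lowest EtOH mean, and it was called at no other time. *ALAS1*, the heme synthesis enzyme on the same list, was not called at any of the 6 times.

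Of the known GC targets, 7 of 8 were called higher at 1 h (0.523% of all genes) and 8 of 8 from 3 h on (5.31% to 13.4%). They included *TSC22D3* (80.1 ± 6.7 against 8.39 ± 1.78 CPM at 1 h) and *FKBP5* (219 ± 5 against 21.0 ± 0.6 CPM at 3 h). All 5 epithelial markers were present, with *KRT8* and *KRT18* at 1439 CPM or more in each library, and they did not move one way with dex. Of the 5, none was called at 1 h and 2 were higher at 3 h (7.66% of all genes). At 5 h 3 were higher and 2 lower (11.2% and 11.9%), and at 7 h 3 higher and 1 lower (13.4% and 12.4%). At 9 h 2 were higher and 2 lower (9.79% and 8.42%), and at 11 h 2 were higher (5.31%). *KRT8* and *KRT18* were higher from 3 to 11 h, and *CDH1* was higher at 5 and 7 h. *KRT19* (median 10.6 CPM with dex and 14.6 with EtOH) and *EPCAM* (5.94 and 9.07) had lower medians with dex. Summed CPM of the epithelial list ranged from 3872 to 10644 with dex and from 3241 to 5222 with EtOH, and its part in the results was not tested. The blood, endothelial and alveolar type 2 markers measured had at most 7 counts in any library, and of the fibroblast markers *COL1A2* had at most 1 and *LUM* at most 12. Summed CPM of the alveolar type 2 list ranged from 0.103 to 0.723 with dex and from 0 to 0.417 with EtOH.

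Across the 24 libraries, log2 CPM of *TEF* went with *NFIL3* (Pearson r = 0.81) and *HLF* (r = 0.70), and *HLF* with *NFIL3* (r = 0.73). *BHLHE40* and *BHLHE41* were weakly related (r = 0.22). These values describe libraries that share treatment, time and depth. Among all genes with a mean of at least 5 CPM, the profiles most like *BHLHE40* were those of *HES1* (r = 0.90), *NUAK2* (0.88) and *JUN* (0.88). Those most like *TEF* were *SOCS3* (0.87), *SLC8B1* (0.87) and *AOX1* (0.86), and those most like *HLF* were *KLHL20* (0.87), *VWA8* (0.86) and *PDGFC* (0.86). *NFIL3* was closest to *CRLS1* (0.86), *TMEM167B* (0.83) and *UTP4* (0.82). For the sparsely counted genes the closest profiles were less alike, with *SURF1* (0.77), *FZR1* (0.75) and *ALAS1* (0.72) for *DBP* and *ZBTB18* (0.73), *NAA16* (0.73) and *FANCL* (0.72) for *BHLHE41*.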

How the data were processed

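Stranded poly-A libraries, sequenced as 50-base single reads, were aligned by the authors to GENCODE transcripts of hg19 and counted per transcript; the deposited values are raw counts. SAMtools is named in the submitters' processing notes. Groups, times and replicate numbers came from the labels, which call the 2 replicates biological. Times are those of the duration field; the labels' treatment text gives 1 h for every sample, and the study's methods name triplicates where 2 libraries a group were analysed here. Transcripts were joined by identifier to GENCODE 29 symbols (94.1% of counts) and summed per gene; gene coordinates are GENCODE 29 (GRCh38), and *FBXL21* and *PECAM1* were not analysed here. The 7 genes, the lists and the naming rules (all 7 genes; at most 3 genes of a list, by smallest adjusted p; the 3 most correlated genes) were chosen with earlier results of these data known.

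Counts were filtered (filterByExpr over 12 groups), TMM-normalized and tested with edgeR 4.0.16 (quasi-likelihood, robust), dex against EtOH separately at each time, and over time in joint fits. P-values were Benjamini-Hochberg adjusted over 19897 genes with a threshold of 0.1; SE is the log2 fold change over the root of F. Likeness used log2 CPM with a prior count of 2. In data simulated for 5 h on 19897 genes, 83% of 2-fold and 100% of 4-fold changes were recovered, with 10.7% false calls. Changes were planted only in genes with mean counts above those of *DBP*, *BHLHE41* and *CIART*, so this recovery does not cover them. In data simulated for the EtOH time course on 19897 genes, 18.4% of calls were false. Alternatives were DESeq2 1.42.0, its size factors, other filters, a joint fit, a replicate block, single transcripts, a threshold of 0.05 and leaving out each library. Fitted intervals cover counting error and the spread between replicates.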

Additional observations from a re-analysis of the deposited data

Results flagged for a closer look

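The effect of dex on *BHLHE40* differed between times (edgeR quasi-likelihood test of the treatment by time terms, adjusted p = 5.35e-09), from a log2 fold change of −1.67 at 1 h to −0.08 at 7 h. The effect on *NFIL3* also differed between times (adjusted p = 0.0622), from −0.28 at 1 h to 0.44 at 7 h. Groups of 2 libraries are too small to single out a library that stands apart.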

How the results depend on the processing

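The alternatives gave 572 values beside those reported, for the 6 tested genes at each time and on average and for the mean difference of *CIART*. Genes that did not pass an alternative's own filter, or whose adjusted p DESeq2 gave as NA, have no value there, leaving 28 values with 10 counts required in every library, 34 with DESeq2 and 35 with the most counted transcript, against 42 with no filter. Of the 572, 502 kept their direction and side of the threshold, 45 lost a call, 10 gained one and 15 changed sign. Of the 6 tested genes, the number called at 3 h was 1 in place of 2 with DESeq2, with 10 counts required in every library, in the fit over 24 libraries, with the most counted transcript and at a threshold of 0.05. At 5 h it was 0 in place of 2 with DESeq2 and 1 with the most counted transcript, and at 7 h 1 in place of 3 with DESeq2. At 9 h it was 0 in place of 2 with DESeq2 and with the most counted transcript, 1 at a threshold of 0.05 and 4 in the fit over 24 libraries. The most counted transcript gave 2 in place of 4 over time with dex and 1 in place of 2 for an effect that differed between times, as did a threshold of 0.05. With 10 counts required in every library 3 in place of 5 passed on average, since *HLF* and *BHLHE41* did not meet that filter. DESeq2 also called fewer of all genes than edgeR, 1240 against 2576 at 3 h, 2479 against 4606 at 5 h, 2560 against 5132 at 7 h, 1928 against 3624 at 9 h and 1125 against 1707 at 11 h. The cause of these differences between tools was not tested.

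Leaving out each library gave 1 to 2 called genes at 3 h, 0 to 2 at 5 h, 0 to 4 at 9 h, 0 to 1 at 11 h (*BHLHE41* without dex replicate 1) and 1 to 3 for an effect that differed between times. A lone remaining library was taken to vary like the other group. *NFIL3* lost its call for an effect that differed between times without any 1 of 7 libraries (dex replicate 1 or EtOH replicate 2 at 1 h, either dex library or EtOH replicate 1 at 7 h, either dex library at 9 h), with adjusted p values from 0.104 to 0.213. Signs changed for uncalled values only. Over the left-out libraries the log2 fold change ran from −0.71 to 0.041 for *TEF* at 1 h, from −0.22 to 0.34 for *DBP* at 3 h and −0.29 to 0.65 at 7 h, from −0.51 to 1.04 for *HLF* at 3 h and −0.24 to 0.18 at 11 h, from −1.30 to 0.68 for *BHLHE41* at 7 h and −1.998 to 0.20 at 9 h, and from −0.16 to 0.059 for *NFIL3* at 11 h. With the most counted transcript *HLF* was at 0.35 at 1 h and 0.021 at 11 h.

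The study's methods name a paired EtOH control. The correlation of same-numbered libraries' deviations ran from −0.06 to 0.14 over the 6 times and was highest at 1 h, which does not settle whether such libraries were pairs. With a replicate block, 4 of the 6 genes were called at 9 h in place of 2 (*NFIL3* and *BHLHE40* added), and 634 of all genes at 1 h in place of 172; the counts of called genes among the 6 were otherwise those reported. Depth limits *BHLHE41*, *CIART* and *DBP* most, which had at most 21 counts in any library.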
